A study of Mus musculus with 24 samples.

Results

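The miR-30 family was followed in the JygMC(A) mouse mammary tumor model by the 5 probes that name its guide strands, mmu-miR-30a, mmu-miR-30b, mmu-miR-30c, mmu-miR-30d and mmu-miR-30e (written without mmu below). The members were chosen by name alone, from the 566 mouse miRNA probes of the panel, with earlier results of these data known. All 5 were above the detection limit in every tumor and normal tissue sample. All 5 were lower in the tumors than in normal mammary gland (NMG) and lower in lung metastases than in normal lung, and neither the step from carcinoma to EMT-like areas nor that from primary tumors to lung metastases gave a call for a member.

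JygMC(A)-GFP/Luc cells, a mouse mammary carcinoma line that carries a fluorescent and a luciferase reporter, formed the tumors after injection, on both sides, into the fourth mammary fat pad of female Balb/C nude mice, which lack mature T cells. Areas were cut out by laser capture microdissection, and miRNAs were counted with the nCounter assay in 24 samples. These were carcinoma areas (n = 5) and spindle-shaped EMT-like areas (n = 7) of the untreated primary tumors, lung metastases (n = 4), NMG (n = 2), normal lung parenchyma (n = 2), and the injected line grown as a monolayer (n = 2) or as third-generation 3D-spheres (n = 2). PT stands here for all 12 samples of carcinoma and EMT-like areas. No tumor of another line was sampled, so every tumor sample descends from 1 line. Its parent, JygMC(A), came from a mammary carcinoma that arose spontaneously in a Chinese wild mouse. The Int3/Notch4 locus of that line holds inserted mouse mammary tumor virus. The line and the Balb/C nude mice thus differ in origin. If NMG and normal lung came from such mice, strain and tumor state cannot be told apart in comparisons of tumors with normal tissue. Several carcinoma, EMT-like and metastasis samples carry the label of the same animal, and replicate 1 of each of these groups carries a label that names 3 animals. The samples of NMG and normal lung came from the same 2 animals, and only their labels begin with the words "New Sample". The labels do not say whether these samples were run in another batch. If they were, batch and tissue cannot be told apart in any comparison of tumors with normal tissue. Nothing in the labels says that the cultures were grown from separate stocks. The p-values of their comparisons rest on a spread estimated over all 24 samples together, not on that of the cultures alone.

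A miRNA is a short RNA that guides an Argonaute protein to messenger RNAs, mostly through its seed, the bases near its 5′ end, and lowers their translation or stability. The miR-30 miRNAs share a single seed and are made from several genes. They are widely expressed in epithelial tissues, and in mammary and other epithelial cells they are known to act on messenger RNAs of the transcription factor Snai1, of vimentin and of other genes of the epithelial-mesenchymal transition. In breast tumor-initiating cells the family has been described as reduced, with Ubc9 and integrin beta 3 among its targets.

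RefSeq mature sequences (GRCm38.p6) were at hand for 3 of the 5 members, and for miR-384-5p, another miRNA with the miR-30 seed. They are shown because the seed decides which targets the members share and because the 3′ parts bear on how far the probes can be told apart. Bases 2 to 8 from the 5′ end, the seed, are in capitals, and the sequences run 5′ to 3′.
miR-30a: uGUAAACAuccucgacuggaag
miR-30c: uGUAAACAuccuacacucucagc
miR-30e: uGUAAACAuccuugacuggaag
miR-384-5p: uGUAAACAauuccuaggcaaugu
Of the 1679 mature miRNAs of that table, which has no entry for miR-30b and miR-30d, these 4 held the seed. Counted from 1 at the 5′ end, miR-30a and miR-30e differed at 1 of 22 positions (C13U, with the base of miR-30a first). miR-30a and miR-30c differed at 5 of the 22 positions compared (C13A, G14C, G18C, G19U and A20C). Cross-hybridization between such near-identical miRNAs was not tested, and the values of miR-30a and miR-30e in particular are uncertain in that respect.

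On GRCm38.p6, miR-30a lies at chr1:23272274-23272295 on the plus strand. miR-30c has 2 gene copies, Mir30c-2 at chr1:23291714-23291736 on the plus strand and Mir30c-1 at chr4:120769584-120769606 on the minus strand, and 1 probe counts both. miR-30e lies at chr4:120772660-120772681 on the minus strand, beside Mir30c-1 and, like it, inside the gene Nfyc. Mir30b and Mir30d also lie within 10 kb of each other. Mir30a and Mir30c-2 lie farther apart, with 19361 bases between them. These 3 gene pairs gave the probe pairs for the ratios within a lane below.

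A lane is the run of 1 sample, and its deposited values are barcode counts minus the mean of the 6 negative control probes of that lane. The detection limit was set at the mean plus 2 SD of those controls and lay between 4 and 21.4 counts. The lanes differed in depth, with a sum of mouse miRNA values (those below 0 taken as 0) of 62583 to 184501 in the tumor groups, 525697 to 560247 in NMG, 590022 to 2335745 in normal lung and 26420 to 46507 in the cultures. Values were therefore scaled between lanes with TMM factors (trimmed mean of M-values), and are called normalized values below. Log2(normalized value + 1) was fitted with limma for all 24 samples together, and a probe was called at an adjusted p under 0.05 over 583 probes. Fold changes are on that log2 scale and understate the change of low values.

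For miR-30a, the normalized values were 5916 and 6515 in normal lung and 856 and 911 in NMG. The lung metastases held 139, 286, 320 and 374, and the carcinoma areas 171, 220, 249.6, 259 and 401. In the EMT-like areas the lowest, median and highest values were 157, 215 and 272. The 3 tumor groups overlapped, and all of their samples lay below both samples of NMG. In culture the line gave 51.0 and 79.2 as a monolayer and 88.8 and 119 as spheres, below every tumor sample.

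miR-30b had 3201 and 3689 in normal lung and 622 and 890 in NMG. In the lung metastases it was 343, 422, 489 and 519, and in carcinoma 247, 333, 361, 380 and 392. The EMT-like areas ran from 193 through a median of 254 to 434. The tumor groups overlapped again, and the highest metastasis lay below the lower NMG sample by a smaller ratio than for any other member. The monolayer cultures had 54.4 and 97.8, and the spheres lay between these, at 79.3 and 83.6.

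The miR-30c probe counted 3485 and 3629 in normal lung and 1178 and 1731 in NMG, on the normalized scale. Carcinoma areas held 307, 357, 416, 489 and 530.2, and lung metastases 353, 373, 439 and 473. The EMT-like areas had a lowest value of 120.4, a median of 299 and a highest value of 392. Both spheres, at 226 and 229.9, lay inside the EMT-like range. No other member had a culture value above the detection limit that overlapped with the tumor areas. The monolayer samples differed widely, at 99.4 and 18.3, and the second was under the detection limit.

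The normalized values of miR-30d were 3534 and 4300 in normal lung and 591 and 617 in NMG. Carcinoma replicate 4 held 141, while the other 4 carcinoma areas held 265, 388, 398 and 413. Lung metastases gave 277, 351, 359.7 and 392, and EMT-like areas 158 as the lowest, 221 as the median and 262 as the highest value. Without that single low carcinoma sample, every carcinoma area lay above every EMT-like area. The spheres had 96.7 and 97.6 and the monolayer 41.9 and 28.5, the latter under the detection limit.

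miR-30e was measured near the limit in the tumors. Its normalized values were 418 and 422 in normal lung and 111 and 135 in NMG. Carcinoma areas held 25.0, 30.0, 33.1, 45.0 and 55.9, lung metastases 23.1, 38.2, 39.3 and 40.1, and EMT-like areas 14.3, 34.0 and 42.3 as lowest, median and highest. These tumor samples rest on deposited values of 18 to 52 counts, so their precision is low. In the 4 cultures the deposited values were 0, 2, 2 and -5, all under the detection limit.

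**Figure D1:**
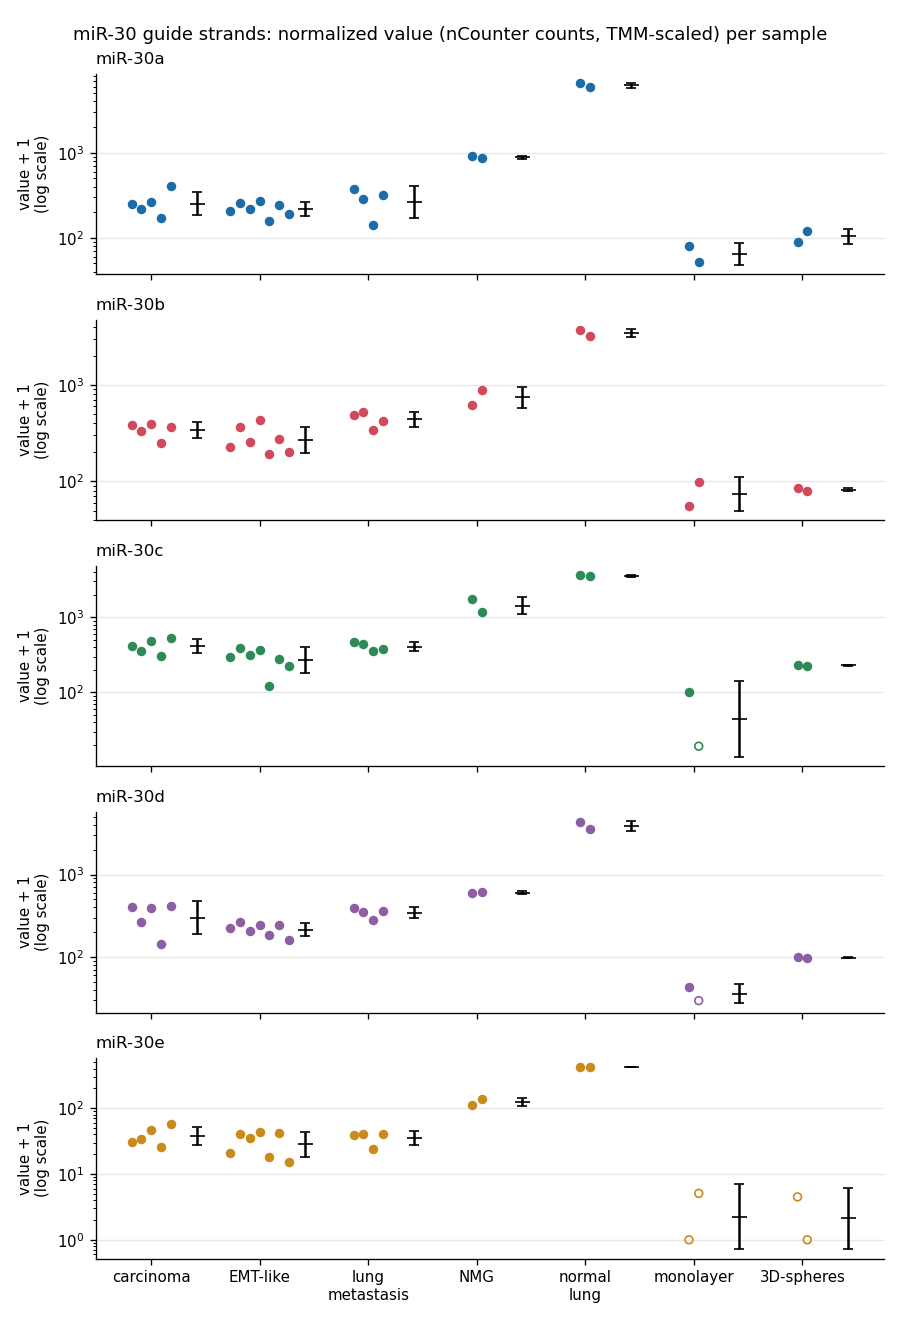
Normalized value + 1 (log scale) of each miR-30 member in every sample, by group on the horizontal axis, with filled points above and open points under the detection limit. Black marks are the mean ± SD of the log2 values of the group. Normal lung is highest and NMG second for all 5 members, the 3 tumor groups overlap, and miR-30e is under the limit in all 4 cultures.

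The order of the groups was the same at its upper end for every member. Normal lung came first and NMG second, with no overlap between them or between NMG and the next group. Carcinoma, EMT-like areas and lung metastases followed in an order that differed between members, with neighbours that overlapped each time. The cultures had the lowest means for miR-30a, miR-30b, miR-30c and miR-30d, and in them spheres and monolayer overlapped for miR-30b. For miR-30e the cultures were under the detection limit and are not ranked. The 5 probes together made up 3.99% and 5.08% of the mouse miRNA sum in normal lung and 1.72% and 1.88% in NMG. That share, which does not depend on the scaling, was 0.891% to 1.37% in lung metastases, 0.619% to 0.998% in carcinoma and 0.513% to 0.996% in EMT-like areas. For the monolayer it came to 0.371% and 0.381%. The spheres had 0.628% and 0.747% and reached the range of the primary tumors.

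Carcinoma and EMT-like areas of the primary tumors were compared first, since they are the epithelial and the mesenchymal-like parts of these lesions. None of the 5 members was called, against 0.172% of all probes called, and limma gave an unadjusted p under 0.05 for 1 member and for 81 of the 583 probes. The member was miR-30d, with a log2 fold change of 0.48 (SE 0.23, adjusted p = 0.342). All 5 members had a higher mean log2 value in carcinoma, by 0.21 (miR-30a) to 0.61 (miR-30c), with a median of 0.39 where the median of all probes was -0.16. The 95% interval for miR-30c ran from -0.05 to 1.27, and that for miR-30a from -0.29 to 0.70. The direction depended on the scaling, since without scaling miR-30a and miR-30b turned lower in carcinoma (-0.18 and -0.04). Within the lettered series of animal labels the differences were 0.08 to 0.52, and within the numbered series 0.21 to 0.72. Both areas were sampled under 4 labels, 3 of single animals and 1 that names 3 animals. The carcinoma area was higher under 2 of them for miR-30a, miR-30c and miR-30e, under 1 for miR-30b and under 3 for miR-30d. Under these labels the mean differences were smaller, from 0.07 (miR-30e) to 0.28 (miR-30d). The fit above did not use the labels, and the remaining areas had no partner. With the animal as a fixed block the differences were 0.03 (miR-30a) to 0.31 (miR-30d). Without carcinoma replicate 4, miR-30d was called at 0.75 (adjusted p = 0.0390), and the number of all probes called rose from 1 to 13.

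The epithelial marker miRNAs (miR-200a, miR-200b, miR-200c, miR-141, miR-429, miR-203 and miR-205) summed to 930 to 5385 in carcinoma and 59.4 to 1758 in EMT-like areas. Their median log2 fold change was 2.79, and 0 of the 7 were called. Their part in the miR-30 values was not tested.

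Against NMG, the tissue in which the tumors grew, all 5 members were lower in carcinoma areas. This is to be read against 23.8% of all probes called lower (29.3% called in either direction) in that comparison. The log2 fold change of miR-30a was -1.82 (SE 0.34, adjusted p = 0.000302), a 3.52-fold difference. miR-30c fell by 1.79 (SE 0.45, adjusted p = 0.00501) and miR-30e by 1.73 (SE 0.59, adjusted p = 0.0317). The decreases of miR-30b and miR-30d were 2.19-fold and 2.02-fold, with adjusted p = 0.00917 and adjusted p = 0.0232. The median of the 5 was -1.73, and that of all probes -0.68. Carcinoma and NMG samples did not overlap for any of the 5 members, and 31% of all probes were lower in carcinoma without overlap.

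EMT-like areas were compared with the same 2 samples of NMG, so that both comparisons share their control. Here too all 5 members were lower, where 20.4% of all probes were called lower and 24.9% in either direction. The log2 fold changes were -2.40 for miR-30c (SE 0.44, adjusted p = 0.000232), -2.12 for miR-30e (SE 0.57, adjusted p = 0.00793) and -2.02 for miR-30a (SE 0.33, adjusted p = 6.14e-05). miR-30d and miR-30b followed with -1.50 and -1.48. The median was -2.02 for the members and -0.30 for all probes, and none of the members overlapped between the groups, where 25.2% of all probes were lower without overlap.

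These calls rest on 2 samples of NMG and on the scaling. With 2 other scalings, to the sum of the 100 most abundant miRNAs and to the sum of all miRNAs, 2 members (miR-30a and miR-30c) stayed called in carcinoma and 3 (miR-30a, miR-30c and miR-30d) in EMT-like areas, and all 5 remained lower in both. Those scalings moved the median of all probes to -0.32 for carcinoma and to 0 for EMT-like areas. Under each, 144 of all probes were called for carcinoma and 141 for EMT-like areas, where 171 and 145 had been. Leaving out NMG replicate 1 or NMG replicate 2 leaves 1 sample of NMG. The log2 fold changes of the 5 members in carcinoma then ran from -2.07 to -0.88, and not all 5 stayed called.

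**Figure D2:**
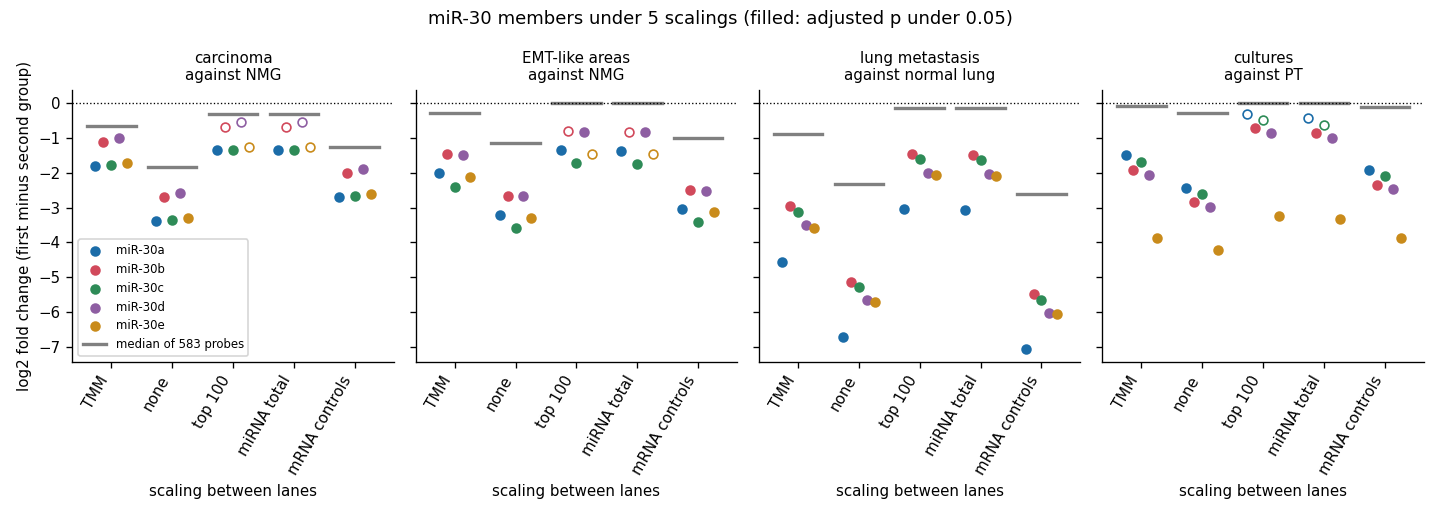
Log2 fold change of each miR-30 member (coloured points, filled where the adjusted p is under 0.05) under 5 ways of scaling between lanes, for 4 comparisons, with the median of all 583 probes as a grey bar. All points lie below 0, and the distance from 0 is smallest with the 100 most abundant miRNAs or the miRNA total. miR-30e in the cultures was under the detection limit, so its points in the last panel depend on the pseudocount.

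Each tissue sample pools the RNA of many cells, so that fewer cells of a type and less RNA per cell cannot be told apart. Areas were selected by laser capture microdissection, and the effect of that selection on these values was not tested. Red blood cell miRNAs (miR-144, miR-451 and miR-486) summed to 8118 to 8509 in NMG, against 83.7 to 225 in carcinoma and 92.6 to 297 in EMT-like areas, and all 3 were called lower in both areas. The endothelial strands miR-126-3p and miR-126-5p summed to 10971 to 17649 in NMG, 1067 to 1894 in carcinoma and 1314 to 2626 in EMT-like areas, and both were called lower in each. Smooth muscle and fibroblast miRNAs (miR-143, miR-145, miR-199a-3p, miR-199a-5p and miR-214) summed to 15164 to 16236 in NMG and 1646 to 4173 in the primary tumors, with 4 of 5 called lower in each area. Leukocyte miRNAs (miR-142-3p, miR-142-5p, miR-150, miR-155 and miR-223) summed to 2628 to 5720.2 in NMG and 572 to 1243 in the primary tumors, with 3 of 5 called lower in each area, while 2 were called higher for carcinoma and 1 for the EMT-like areas. Skeletal muscle miRNAs (miR-1, miR-133a, miR-133b and miR-206) summed to 44.5 and 1027 in the 2 samples of NMG and to 10.5 to 75.2 in the primary tumors, with 2 of 4 called lower for carcinoma and 1 for the EMT-like areas. The epithelial list summed to 2925 to 4061 in NMG, and EMT-like areas had 4 of its 7 members called lower and carcinoma had 1. Their part in the miR-30 differences was not tested.

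Lung metastases were then compared with PT, to ask whether the family changed between the primary site and the lung. No member was called, where 3.09% of all probes were. limma gave an unadjusted p under 0.05 for 2 members and for 90 of all probes. miR-30b was higher in metastases by 0.57 (SE 0.21, 95% interval 0.12 to 1.02, adjusted p = 0.15) and miR-30d by 0.48 (SE 0.23, adjusted p = 0.31), neither of which passed the adjustment. For miR-30a, miR-30c and miR-30e the values were 0.19, 0.34 and 0.15, with intervals that include 0. The median of the 5 was 0.34, and that of all probes was 0. Without scaling, miR-30a, miR-30c, miR-30d and miR-30e turned lower in metastases, by 0.09 to 0.39.

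Metastasis and EMT-like area shared 4 labels, 3 of single animals and the 1 that names 3 animals. The metastasis was higher under all 4 for miR-30b, miR-30c and miR-30d, under 3 for miR-30a and under 2 for miR-30e. Carcinoma and metastasis shared 1 single animal and the label of 3 animals, and miR-30b was higher in the metastasis of both, by 0.36 and 0.52. For miR-30d the metastasis was lower in both, by 0.02 and 0.23. Within the lettered series, which holds 1 metastasis, the differences from PT were 0.23 to 0.66, and within the numbered series 0.05 to 0.64. Epithelial miRNAs summed to 2509 to 4671 in the metastases and to 59.4 to 5385 in PT, and 1 of 7 was called higher. Red blood cell miRNAs summed to 348 to 533 against 83.7 to 297, with 1 of 3 called higher, and leukocyte miRNAs to 870 to 1634 against 572 to 1243, with 1 of 5 called higher. Smooth muscle and fibroblast miRNAs summed to 918 to 2082 against 1646 to 4173, and 2 of 5 were called lower. No endothelial or skeletal muscle marker was called. Their part in the miR-30 values was not tested.

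The family differed most between lung metastases and normal lung. All 5 members were lower in the metastases, where 42.2% of all probes were called lower and 49.2% in either direction. miR-30a had a log2 fold change of -4.56 (SE 0.35, adjusted p = 6e-10), a 23.5-fold difference. miR-30e followed with -3.57 (SE 0.62, adjusted p = 6.58e-05) and miR-30d with -3.51 (SE 0.34, adjusted p = 2.19e-08). miR-30c was lower by 8.73-fold and miR-30b by 7.84-fold. The members' median was -3.51 and that of all probes -0.90, and no member overlapped between the groups, where 37.9% of all probes were lower without overlap. Each of the 5 was called under every alternative run for this comparison, with log2 fold changes from -7.07 to -1.46.

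Normal lung lanes also held red blood cell miRNAs of 49121 to 55994 in sum, against 348 to 533 in metastases. Endothelial miRNAs summed to 67772 to 70141 in normal lung and 819 to 3114 in metastases, and both lists were called lower as a whole (3 of 3 and 2 of 2). Smooth muscle and fibroblast miRNAs summed to 14549 to 18412 against 918 to 2082, with 4 of 5 called lower. Leukocyte miRNAs summed to 4834 to 6181 against 870 to 1634, with 3 of 5 called lower and 2 higher, and skeletal muscle miRNAs to 585 to 1724 against 19.1 to 39.5, with 3 of 4 called lower. Epithelial miRNAs summed to 5068 to 6063 against 2509 to 4671, with 1 of 7 called lower. Their part in the miR-30 differences was not tested.

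The normal tissues also differed from each other. With limma, 3 members were called higher in normal lung than in NMG, where 10.5% of all probes were called higher and 11.7% in either direction. These were miR-30a, by 2.81 (SE 0.41, adjusted p = 2.88e-05), miR-30d, by 2.69 (SE 0.39, adjusted p = 2.88e-05), and miR-30b, by 2.21 (SE 0.37, adjusted p = 0.000185). miR-30e and miR-30c had 1.77 (adjusted p = 0.104) and 1.32 (adjusted p = 0.115) and did not pass. The samples did not overlap for any of the 5 members, where 32.4% of all probes were higher without overlap, and the median of the members was 2.21 against 0.33 for all probes. Scaled by the mRNA controls, all 5 were called, but that scaling also moved the median of all probes from 0.33 to 1.39. Beside these members, 2 of 3 red blood cell miRNAs (median log2 fold change 2.73) and 2 of 2 endothelial strands (median 2.36) were called higher in normal lung, and none of the other 4 marker lists had a member called. Their part in the miR-30 differences was not tested.

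The difference between metastasis and normal lung was then set against that between PT and NMG in a single contrast, a test added after the data had been seen. It was more negative in the lung for 3 members, with a value of -2.62 for miR-30a (SE 0.47, adjusted p = 0.00046), -2.21 for miR-30d (SE 0.45, adjusted p = 0.00158) and -1.63 for miR-30b (SE 0.43, adjusted p = 0.0139), on the log2 scale. In this contrast 10.8% of all probes were called in that direction and 11.5% in either. The values for miR-30e and miR-30c, -1.62 (adjusted p = 0.231) and -0.98 (adjusted p = 0.387), did not pass. With the 100 most abundant miRNAs or the miRNA total as the scaling, miR-30a alone stayed called. By its arithmetic the contrast is metastasis minus PT less normal lung minus NMG, so it shares its samples with both of those comparisons and is not separate evidence.

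**Figure D3:**
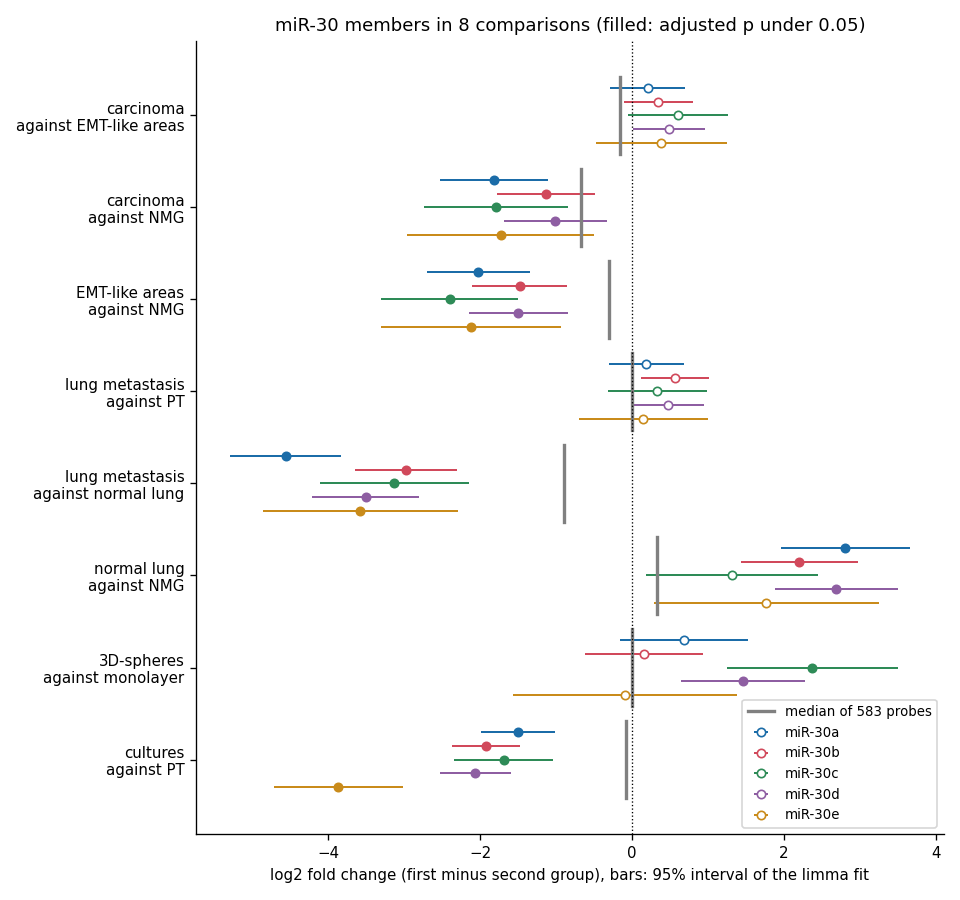
Log2 fold change of each miR-30 member (first minus second group named on the vertical axis) with its 95% interval in 8 comparisons, filled where the adjusted p is under 0.05, and the median of all 583 probes as a grey bar. All 5 members are called lower in carcinoma and EMT-like areas against NMG and in lung metastases against normal lung, and no member is called in carcinoma against EMT-like areas or in lung metastases against PT. The values of miR-30e in the cultures rest on samples under the detection limit.

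Spheres were compared with the monolayer because sphere growth is used to enrich for stem-like tumor cells. miR-30c and miR-30d were called higher in spheres, where 2.92% of all probes were called higher and 4.63% in either direction. For miR-30c the log2 fold change was 2.38 (SE 0.54, adjusted p = 0.0108), and for miR-30d it was 1.46 (SE 0.39, adjusted p = 0.0309). miR-30a, at 0.69, and miR-30b, at 0.16, were not called, and miR-30e was under the detection limit in both culture forms. The median of the 5 was 0.69, and that of all probes was 0. Both calls rest on 1 monolayer sample above the detection limit. Without monolayer replicate 2, the sample under the limit, the log2 fold changes were 1.19 for both and neither was called, and neither was called without sphere replicate 1, without sphere replicate 2, without scaling, with the mRNA controls as the scaling or with those cultures alone in the fit. Of the marker lists, 1 red blood cell miRNA, under the limit in all 4 cultures, was called lower in spheres, and none of the other lists had a member called.

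The injected line in culture was compared with the tumors it formed. miR-30a, miR-30b, miR-30c and miR-30d were called lower in the 4 cultures than in PT, where 22% of all probes were called lower and 30.4% in either direction. miR-30d was lower by 2.06 on the log2 scale (SE 0.23, adjusted p = 1.56e-07) and miR-30b by 1.92 (SE 0.21, adjusted p = 2.12e-07). miR-30c had -1.68 and miR-30a -1.50. miR-30e passed the test as well (adjusted p = 1.1e-07), but its 4 culture values were under the detection limit, and that limit, scaled for these shallow lanes, reaches the level of the tumors. It is therefore not described as lower, and no fold change is given. The median of the 5 was -1.92, or -1.68 with miR-30e at its bound, and that of all probes was -0.08. Cultures and PT did not overlap for miR-30a, miR-30b and miR-30d, where 11.8% of all probes were lower without overlap, and overlapped for miR-30c. With the 100 most abundant miRNAs or the miRNA total as the scaling, miR-30b and miR-30d stayed called among these 4, and miR-30a and miR-30c did not.

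The endothelial strands were at 0 in sum in all 4 cultures and at 1067 to 2626 in PT. Red blood cell miRNAs were under the detection limit in all 4 cultures, 3 of 3 in each form, and the 5 probes of the miR-200 group were under it as well. By the test, 2 of 2 endothelial, 2 of 3 red blood cell, 4 of 5 smooth muscle and fibroblast and 5 of 7 epithelial markers were called lower. Leukocyte miRNAs had 2 called lower and 2 higher, with sums of 764 to 1130.2 in the cultures and 572 to 1243 in PT. In all 4 cultures miR-142-3p and miR-223 were under the detection limit, and in the spheres miR-150 was too. Only miR-155 and miR-142-5p were above it in every culture, so these sums do not stand for the whole list. Skeletal muscle miRNAs had 2 of 4 called higher, with sums of 104 to 169 in the cultures and 10.5 to 75.2 in PT. Their part in the miR-30 differences was not tested.

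Ratios of 2 probes in the same lane do not depend on the scaling. They were taken for the 3 gene pairs named above, as log2 ratios of deposited values + 1, and tested with exact two-sided permutation tests in 3 comparisons, 9 tests in all. None passed Benjamini-Hochberg adjustment. The ratio of miR-30a to miR-30c had a mean of -0.72 ± 0.20 in carcinoma (SD, n = 5), lower than the -0.32 ± 0.35 of EMT-like areas (SD, n = 7), with an exact p = 0.0341 and an adjusted p = 0.307. The permutation took each area as a separate sample, without the animal labels. The highest EMT-like ratios, 0.38, -0.21 and -0.23, were those of replicates 5, 6 and 7, which shared no label with a carcinoma area. The other 8 tests had an adjusted p of 0.669 to 0.879. Against NMG (n = 2) the smallest p the design allows is 0.011.

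The same ratio of miR-30a to miR-30c differed in sign between the normal tissues. It was 0.76 and 0.84 in normal lung and -0.93 and -0.46 in NMG, with no test for 2 samples against 2. Lung metastases had values from -1.34 to -0.22, so all 4 lay below normal lung and on both sides of NMG. For miR-30b to miR-30d, normal lung had -0.22 and -0.14, NMG 0.07 and 0.53, and spheres -0.28 and -0.22. The ratio of miR-30e to miR-30c ran from -3.90 to -2.74 over the 16 tumor samples and from -3.95 to -3.06 over the normal tissues, which overlapped.

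**Figure D4:**
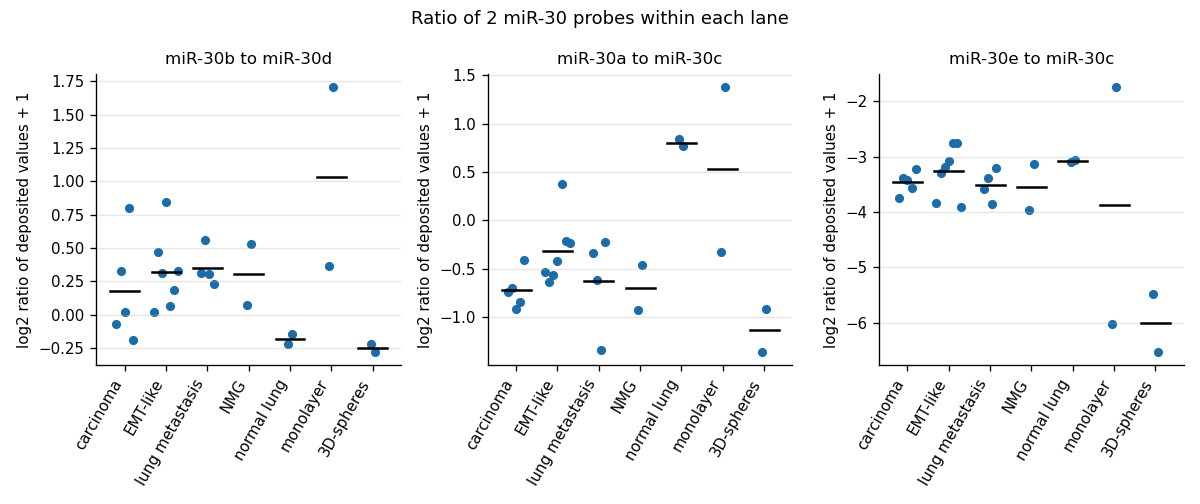
Log2 ratio of the deposited values + 1 of 2 miR-30 probes in each lane (points) and the group mean (bars), for the 3 pairs of neighbouring genes on a chromosome. The ratio of miR-30a to miR-30c is above 0 in both normal lung samples and below 0 in NMG, carcinoma, lung metastasis and spheres. Monolayer points and those of miR-30e in the cultures rest on values near or under the detection limit.

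The members varied together. Pearson's r between 2 members over the 24 samples lay between 0.80 (miR-30c and miR-30e) and 0.96 (miR-30b and miR-30d), and over the 16 tumor samples between 0.68 and 0.81. These are descriptions, since 2 probes of a lane share its RNA and its scaling factor. Of the 191 other miRNAs above the limit in at least 12 lanes, those most like the mean of the members over the 24 samples were miR-451 (r = 0.95), miR-26b (r = 0.94), miR-151-5p (r = 0.94), miR-126-5p (r = 0.93) and miR-188-5p (r = 0.93). miR-451 is a red blood cell and miR-126-5p an endothelial miRNA. Within the 16 tumor samples r was 0.49 for miR-451, 0.74 for miR-26b, 0.54 for miR-151-5p, 0.29 for miR-126-5p and 0.42 for miR-188-5p. Some miRNAs outside these 5 had a higher r there. Least like the members were miR-155 (r = -0.83), miR-1964 (r = -0.80) and miR-871 (r = -0.78), and over the tumor samples miR-155 had 0.44. The row name of miR-155 carries a correction factor for a positive control, which is 0 in the row names of the members.

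The panel held no probe for a star strand of miR-30, the strand of the hairpin opposite the guide. miR-384-5p, whose sequence with the shared seed is shown above, was under the detection limit in all 24 lanes, with deposited values from -17 to 4. Its absence above the limit says nothing of the level below it.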

How the data were processed

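The members and the marker lists were chosen with earlier results of these data known. The deposited values are a score per probe, which the authors made from nCounter counts by subtracting, lane by lane, the mean negative control. This was read from the values, of which 35.2% lie below 0. They were not scaled between lanes. The submitters' processing notes name Partek, with no role. Values were floored at 0 and scaled by TMM (trims of 30% and 5%, reference carcinoma replicate 2), and log2(value + 1) of the 583 probes above 0 in at least 1 sample was fitted with limma 3.58.1 with trend (R 4.3.3) over all 7 groups. Benjamini-Hochberg adjustment covered all 583 probes, and the procedure was tested on simulated data. The text names all 5 members, miR-384-5p, and the 5 most and 3 least correlated miRNAs. The deviations of samples of the same animal, by label, had a median r of 0.293 (-0.449 to 0.572, 10 pairs). For other animals of the same series it was 0.0796 (-0.409 to 0.483, 32 pairs), so the ranges overlap widely. The difference was not tested. Depth limits the cultures and miR-30e most, and intervals cover the spread between samples only. Figures were drawn with matplotlib 3.10.9 (Python 3.11.15).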

Additional observations from a re-analysis of the deposited data

Results flagged for a closer look

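Lung metastasis replicate 3 stood apart from the other 3 metastases for miR-30e, with a normalized value of 23.1 where the others held 38.2 to 40.1. Its gap to the nearest sample made up 0.912 of the range of the group. Of 15 groups of 4 to 10 samples tested this way 1 was flagged, and chance flags about 1 in 20. The deposited value behind it was 18 counts, with a detection limit of 17.1 in that lane.

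The difference between tumor and normal tissue was larger in the lung than in the mammary gland for 3 members by the test of the difference itself. The values, lung metastasis minus normal lung against PT minus NMG on the log2 scale, were -2.62 for miR-30a, -1.63 for miR-30b and -2.21 for miR-30d. Over the alternatives they ran from -4.16 to -1.69 for miR-30a, from -3.18 to -0.70 for miR-30b and from -3.76 to -1.28 for miR-30d. Without NMG replicate 1, miR-30b had -1.38 and was not called.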

How the results depend on the processing

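Of 905 member values under the alternatives, 833 kept their direction and side of the threshold, 44 lost the threshold, 9 gained it and 19 changed sign, each of the latter for a value that had not been called. The causes were not tested, and with 2 samples in a small group the fit takes the spread of the lone sample left from the other groups.

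The main changes in the number of members called were as follows. Scaling by the 100 most abundant miRNAs and scaling by the miRNA total each gave 2 for carcinoma against NMG, 3 for EMT-like areas against NMG and 3 for cultures against PT, where 5 had been called each time, with miR-30e, under the detection limit in the cultures, among those counted there. Of all probes, both scalings called 144 for carcinoma against NMG, where 171 had been called, and 141 for EMT-like areas against NMG, where 145 had been. With only those groups in the fit, carcinoma against NMG had 4 members and 163 of all probes called. Scaling by the mRNA controls gave 5 members for normal lung against NMG, where 3 had been called, with the median of all probes moved to 1.39. There miR-30e was called under 4 of the 14 alternatives. For 3D-spheres against the monolayer, where 2 had been called, the count was 0 without scaling, with the mRNA controls and with only those groups in the fit, and 1 with a pseudocount of 10. Over the alternatives that kept every sample of the groups, 0 to 41 of all probes were called for the spheres, against 27 in the main fit. For normal lung against NMG it was 30 to 160 (main 68), and for cultures against PT 135 to 375 (main 177). Leaving out single samples could lower the count of members for the spheres and for both primary areas against NMG. It gave 0 to 1 members for carcinoma against EMT-like areas, where 1 to 19 of all probes were called.

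The culture number as a fixed replicate block, a shared number with no stated pairing, left 1 member called in the spheres (miR-30c), since miR-30d had an adjusted p = 0.0648. The fixed block was run for 20 of the 45 member values, those of comparisons within animals or cultures, and changed no other call. The random block was run for all 45 and changed 0.

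Sign changes for carcinoma against EMT-like areas were miR-30a at -0.18 and miR-30b at -0.044 without scaling, miR-30a at -0.00365 with the 100 most abundant miRNAs, and miR-30e at -0.043 with the higher background (mean plus 2 SD of the negative controls, floor of 1). For lung metastasis against PT, they were miR-30a at -0.37, miR-30c at -0.23, miR-30d at -0.087 and miR-30e at -0.39 without scaling, miR-30a at -0.10 and miR-30e at -0.14 with the mRNA controls, and miR-30e at -0.34 with the higher background. For the spheres, miR-30b had -0.063 without scaling, -0.060 when the 100 most abundant miRNAs set the scaling and -0.10 when the miRNA total did, and -0.26 to 0.57 with single samples left out. There miR-30e had 0.21 with the mRNA controls, 0.15 with the higher background and -1.26 to 1.08 with single samples left out.

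Among the ratios, miR-30a to miR-30c for lung metastasis against PT turned to 0.36 within the lettered series and ran from -0.28 to 0.094 with single samples left out. The ratio of miR-30e to miR-30c for carcinoma against EMT-like areas was 0.050 within that series. For PT against NMG, leaving out single samples gave -0.023 to 0.44 for miR-30a to miR-30c, -0.22 to 0.61 for miR-30e to miR-30c and -0.27 to 0.19 for miR-30b to miR-30d.

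The scalings moved the median of all probes by -1.15 to 0.35 on the log2 scale for carcinoma against NMG, -0.86 to 0.30 for EMT-like areas against NMG, -1.72 to 0.76 for lung metastasis against normal lung, -0.60 to 1.05 for normal lung against NMG, -0.26 to 0.08 for carcinoma against EMT-like areas, -0.23 to 0 for lung metastasis against PT and -0.20 to 0.08 for cultures against PT. Depth limits miR-30e in the cultures and, near the limit, in the tumors.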
